A study of Oryzias latipes with 6 samples.

Results

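The genes that supply free inositol, and the inositol monophosphatases among them, were followed in the testis of medaka (Oryzias latipes), a small laboratory fish, with and without nphp4. The set was built around ENSORLG00000012644, a gene whose best Swiss-Prot match is inositol monophosphatase 1 and which was selected on its measured FPKM, for the higher level in the mutant than in wild type. It was completed by role and name with impa1, impa2, isyna1, inpp1, cdipt, miox, slc5a3 and minpp1, and 10 rows of the 24365 in the deposited table matched. Of these, 7 matched by gene symbol and 2 through the symbol of the protein match, and the name impa2 matched no row. RNA sequencing libraries were made from testes of nphp4 mutant fish (nphp4-/-, a knockout by the series design) and of wild-type fish, 3 libraries per group, each from the pooled testes of 2 fish. All 6 libraries came from total RNA isolated with TRIzol. The labels give no description of the lesion and no age or strain.

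Inositol is a sugar alcohol that serves as an osmolyte and as the head group of the phosphoinositides. Cells make it from glucose phosphate through inositol phosphate synthase, take it up through sodium-coupled carriers, or recover it from the inositol phosphates that phospholipase C releases. The last step of both synthesis and recovery is the removal of a single phosphate by inositol monophosphatase, an enzyme inhibited by lithium. In mammals the testis is known for active inositol synthesis and the fluids of the male tract for a high content of free inositol.

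Levels are given in FPKM, fragments counted per unit of gene length and of library size, which allows genes of different length to be set side by side. Between 13438879 and 16054354 reads fell on genes in a library. This count is not the library size inside FPKM, which was worked out from the values. In wild type 3 that size was 13693794, below its 15516979 reads on genes, and in every other library it was above the reads on genes. Relative to the rest, FPKM in wild type 3 is therefore higher than scaling by reads on genes would make it. The transcript of nphp4 (ENSORLG00000023493) was present in all libraries, at 6.84 to 10.9 FPKM in the mutant and 12.2 to 23.5 FPKM in wild type. Testis markers were present in both groups. The 9 rows of germ cell markers summed to 2019 to 2201 FPKM in the mutant and 1659 to 2238 FPKM in wild type, and the 6 rows of Sertoli cell markers to 1157 to 1424 FPKM in the mutant and 1214 to 1354 FPKM in wild type. The 3 rows of Leydig cell markers summed to 264 to 327 FPKM in the mutant and 286 to 371 FPKM in wild type. These rows stand for 8 of 10 germ cell, 5 of 6 Sertoli and 2 of 5 Leydig markers looked for. Single rows can differ from the sums. The groups did not overlap in dmc1, TEKT1 and clu, all higher in the mutant, and overlapped in every other testis marker row. Over all genes tested below, the groups did not overlap in 14.0%. Wild type 3 stood apart through digestive genes: its 5 rows of exocrine pancreas markers summed to 16892 FPKM, against 257 to 2473 FPKM in the mutant libraries and 1048 and 1288 FPKM in wild type 1 and 2. These rows stand for 4 of 7 pancreas markers looked for, and none was at 0 in all libraries. Its 8 intestinal brush border rows summed to 498 FPKM, against 3.30 to 59.3 FPKM in the mutant libraries and 5.01 and 7.75 FPKM in the other wild-type libraries. The 11 rows of kidney tubule markers summed to 2.36 to 98.4 FPKM in the mutant and 2.05 to 154 FPKM in wild type, and the 2 rows of liver markers to 17.6 to 246 FPKM in the mutant and 58.9 to 1633 FPKM in wild type, with the top values in mutant 2 and wild type 3 for both. The kidney tubule sum of wild type 3 was mainly cdh17 (116 FPKM) and slc12a1 (30.7 FPKM). In mutant 2 it was mainly slc12a3 (51.3 FPKM) and cdh17 (38.5 FPKM). The slc22a2, PAX2 and slc34a1a rows held at most 1.09 FPKM in any library. Blood markers summed to 4.38 to 9.09 FPKM in the mutant and 6.62 to 25.6 FPKM in wild type, and neuron markers to 10.5 to 17.3 FPKM in the mutant and 11.9 to 13.1 FPKM in wild type. The blood sum of wild type 3 was mainly hbba1 (19.9 FPKM), with alas2 at 5.66 FPKM. The log2 values of wild type 3 had a median correlation of 0.878 with those of the rest, whereas this median was 0.950 to 0.970 for each of the remaining libraries. The part of this tissue in the values of single genes was not tested.

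ENSORLG00000012644 was weakly expressed in wild type and, in the mutant, reached levels close to those of impa1, the gene that carries the symbol of the enzyme. The gene lies on the minus strand of chromosome 20 from 22389229 to 22395757, and no other annotated gene overlaps this span. It stood at 13.5, 26.3 and 20.4 FPKM in mutant 1, 2 and 3, against 1.06, 1.32 and 1.08 FPKM in wild type 1, 2 and 3. Every mutant library was above every wild-type library, and the lowest mutant value was far outside the narrow wild-type range. The means were 20.1 ± 6.41 FPKM in the mutant and 1.16 ± 0.141 FPKM in wild type (SD, n = 3 each), a ratio of 17.4. Behind these values stood 404, 752 and 698 reads in the mutant libraries and 37, 42 and 31 reads in the wild-type libraries. The difference was 3.25 on the log2(FPKM + 1) scale, the second highest of the 15203 tested genes, which were those averaging 1 FPKM or more in the mutant or in wild type. Because the gene was chosen for this difference, these values describe it and no test is given. In bulk tissue, more cells that carry the transcript and more transcript per cell cannot be told apart.

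Wild type 3, with the highest sums of pancreas, brush border and liver markers, held 1.08 FPKM, close to the 1.06 FPKM of wild type 1. Mutant 1, with the lowest sums of those markers, held 13.5 FPKM. Among the mutant libraries alone, the order of ENSORLG00000012644 was that of the brush border sums (3.30, 59.3 and 5.63 FPKM in mutant 1, 2 and 3) and of the liver sums (17.6, 246 and 21.9 FPKM). It was also that of the neuron sums. It was not that of the pancreas sums (257, 2299 and 2473 FPKM) or the kidney tubule sums (2.44, 98.4 and 2.36 FPKM). The germ cell, Sertoli, Leydig and blood sums also had other orders. The part of any of these tissues in the difference between the groups, or in the spread among the mutant libraries, was not tested. Without wild type 3 the log2 difference was 3.22, and over the fits that each left out 1 library it lay between 3.04 and 3.49.

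**Figure D1:**
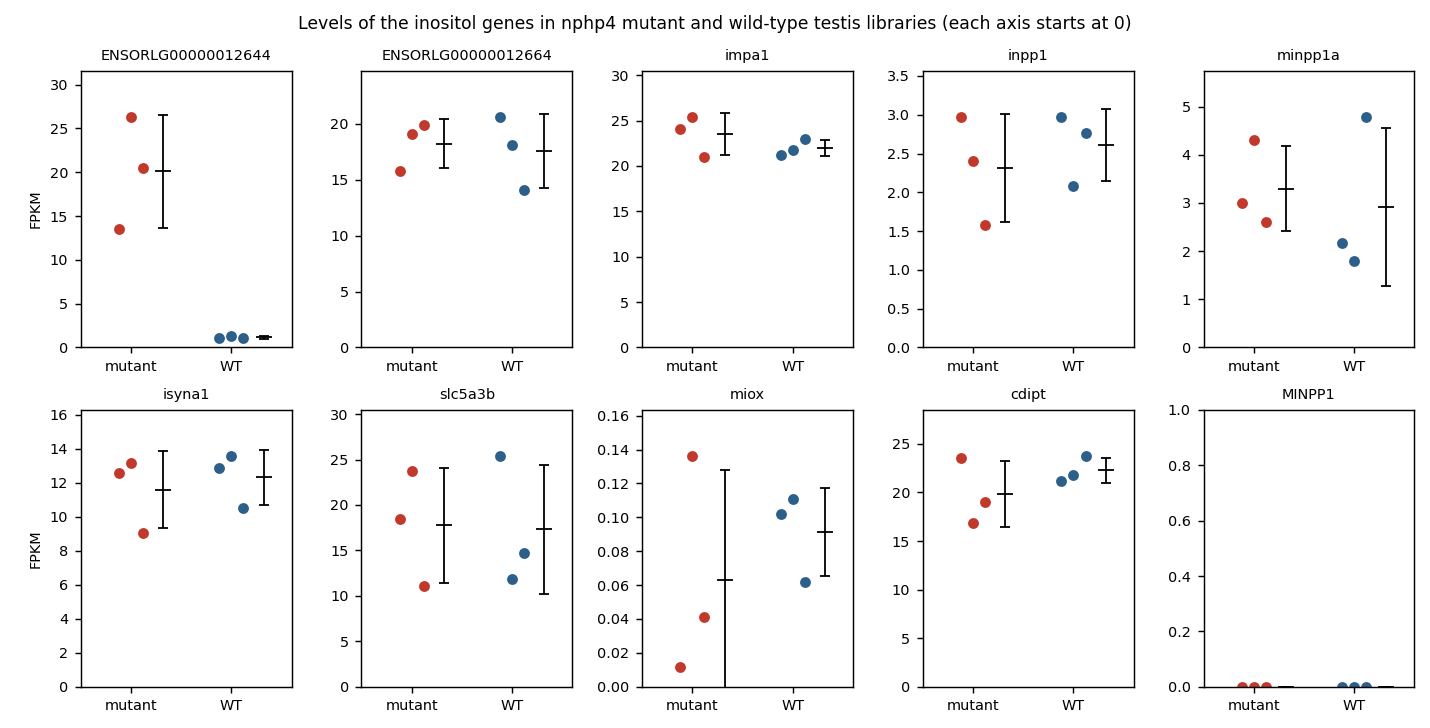
FPKM of the 10 rows in each library, with nphp4 mutant libraries in red on the left and wild-type libraries in blue on the right of each panel; the bar beside each group is its mean ± SD (n = 3, drawn down to 0 at most). In the panel of ENSORLG00000012644, the gene chosen for its difference, the groups do not overlap. It stands at 13.5 to 26.3 FPKM in the mutant and 1.06 to 1.32 FPKM in wild type. The groups overlap in every other panel with reads, and over all tested genes they did not overlap in 14.0%.

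The neighbouring inositol monophosphatase gene had overlapping values in the groups. ENSORLG00000012664 also matches inositol monophosphatase 1, lies on the same strand of chromosome 20 from 22403582 to 22413648, and begins 7824 bases beyond the end of ENSORLG00000012644 with no annotated gene between them. It stood at 15.8, 19.1 and 19.9 FPKM in the mutant libraries, against 20.6, 18.1 and 14.1 FPKM in the wild-type libraries. The groups overlapped, with the highest value in wild type 1 and the lowest in wild type 3. The log2 difference was 0.06 (SE 0.18), with a 95% interval of 0.778-fold to 1.39-fold, and did not pass the threshold (adjusted p = 0.954, limma, over all tested genes). This interval and those below are folds of FPKM + 1, which for genes with low values are narrower than folds of FPKM. The reads on it came to 1831 over the 3 mutant libraries and 1833 over the 3 wild-type libraries. How reads that match both genes were assigned is not given in the sources used here, and the identity of their sequences was not computed. Their joint level was 29.3, 45.4 and 40.3 FPKM in the mutant libraries, against 21.7, 19.4 and 15.2 FPKM in the wild-type libraries, so the groups were also apart in the sum of the pair. This sum holds the chosen gene and gets no test.

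The third gene that matches inositol monophosphatase 1 was impa1 (ENSORLG00000008210, chromosome 17, 13383449 to 13392724, minus strand). Of the members with more than a few reads, it had the smallest range over the libraries on the log2(FPKM + 1) scale (0.268). It was at 24.1, 25.4 and 20.9 FPKM in the mutant libraries against 21.2, 21.8 and 23.0 FPKM in the wild-type libraries. The mutant libraries held both the highest and the lowest of the 6 values. The log2 difference was 0.09 (SE 0.13), with a 95% interval of 0.861-fold to 1.31-fold (adjusted p = 0.903, limma). Its span shares 525 of 9276 bases with a gene on the opposite strand, and counting by strand is not stated. In the deposited annotation, impa1, ENSORLG00000012664 and inpp1 are listed with the inositol monophosphatase family domain, while the domain field of ENSORLG00000012644 is empty.

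Summed over impa1 and ENSORLG00000012664, the level was 41.7 ± 2.45 FPKM in the mutant and 39.6 ± 2.38 FPKM in wild type (SD, n = 3 each). The 2-sided exact permutation test gave p = 0.4, where 3 against 3 libraries cannot go below 0.1. With ENSORLG00000012644 added, the sum was 53.4, 70.8 and 61.2 FPKM in the mutant libraries, against 42.9, 41.2 and 38.1 FPKM in the wild-type libraries. ENSORLG00000012644 made up 25.3% to 37.2% of this sum in the mutant libraries and 2.48% to 3.20% in the wild-type libraries. Its ratio to the neighbouring ENSORLG00000012664 was 0.858 to 1.38 in the mutant libraries and 0.0516 to 0.0770 in the wild-type libraries.

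**Figure D2:**
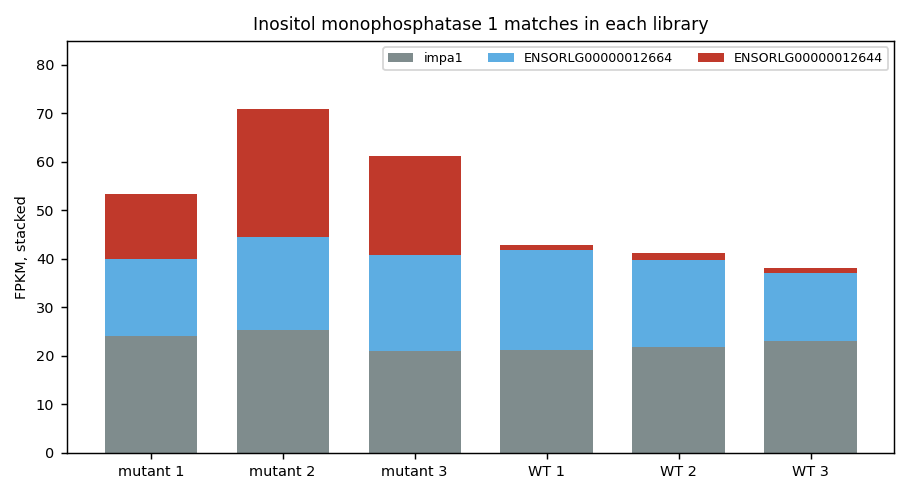
Stacked FPKM of the 3 genes that match inositol monophosphatase 1, in each nphp4 mutant library on the left and each wild-type library on the right. impa1 and ENSORLG00000012664 together reach 39.9 to 44.5 FPKM in the mutant and 37.1 to 41.8 FPKM in wild type, and ENSORLG00000012644 adds 13.5 to 26.3 FPKM in the mutant and 1.06 to 1.32 FPKM in wild type.

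ENSORLG00000012644 gets no test, and none of the tested members passed. Of the 9 rows besides ENSORLG00000012644, 7 averaged 1 FPKM or more in the mutant or in wild type and were tested. limma called 0 of these 7 at an adjusted p below 0.05, and 0 had an unadjusted p below 0.05. limma-voom on recovered reads called 0 of the 7, also with 0 at an unadjusted p below 0.05. Over all 15203 tested genes, 0.0592% were called and 7.13% had an unadjusted p below 0.05, so a count of 0 among 7 is near the background by both rules. The 9 calls over all genes became 3, 2 and 2 without mutant 1, 2 and 3, 4 without wild type 1 and 18 without wild type 3, and limma-voom made 0 calls with 1050 genes at an unadjusted p below 0.05. The 7 log2 differences ran from -0.17 to 0.19 with a median of 0.04, and the median over all tested genes was 0.01. All 7 lay within 0.2 of 0, a band set after the values were seen, as did 56.5% of all tested genes. The groups overlapped in every one of the 8 other members with reads, while 14.0% of all tested genes had groups that did not overlap.

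The genes of inositol synthesis and uptake overlapped between the groups. isyna1 (ENSORLG00000014091, chromosome 22, 9022363 to 9027525, plus strand) encodes inositol phosphate synthase, the enzyme that commits glucose phosphate to inositol. It stood at 12.6, 13.2 and 9.04 FPKM in the mutant libraries and at 12.9, 13.6 and 10.5 FPKM in the wild-type libraries. In each group replicate 3 was the lowest and the ranges overlapped. The log2 difference was -0.09 (SE 0.18), with a 95% interval of 0.696-fold to 1.27-fold (adjusted p = 0.930, limma).

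slc5a3b (ENSORLG00000017889, chromosome 21, 24618753 to 24620888, minus strand) encodes a sodium/myo-inositol cotransporter, which draws inositol into the cell. It was at 18.5, 23.7 and 11.1 FPKM in the mutant libraries, against 25.4, 11.9 and 14.7 FPKM in the wild-type libraries. Within each group the highest library held more than double the level of the lowest, and the groups overlapped. The log2 difference was 0.04 (SE 0.35), and the 95% interval of 0.579-fold to 1.83-fold leaves room for sizeable differences in either direction (adjusted p = 0.983, limma).

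Among the members, inpp1 and minpp1a are phosphatases that feed inositol monophosphatase. Their mean levels were above those of 44.8% and 48.1% of the genes with a read. inpp1 (ENSORLG00000027901, chromosome 5, 27749818 to 27756141, minus strand), which removes a phosphate from inositol bisphosphates, was at 2.96, 2.40 and 1.57 FPKM in the mutant libraries, against 2.97, 2.08 and 2.77 FPKM in the wild-type libraries. Mutant 3 was the lowest library and the ranges overlapped. The log2 difference was -0.14 (SE 0.22), with a 95% interval of 0.638-fold to 1.30-fold in FPKM + 1 (adjusted p = 0.907, limma). At this low level the interval for FPKM itself is wider.

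minpp1a (ENSORLG00000006259, chromosome 15, 20099768 to 20109726, minus strand), which strips phosphates from the highly phosphorylated inositols, was at 2.99, 4.30 and 2.60 FPKM in the mutant libraries, against 2.17, 1.79 and 4.79 FPKM in the wild-type libraries. Its highest values were in wild type 3 and mutant 2, the libraries with the highest sums of intestinal markers. The log2 difference was 0.19 (SE 0.31; adjusted p = 0.907, limma) and 0.51 without wild type 3 (adjusted p = 0.604, limma), and the part of the digestive tissue in it was not tested. The 95% interval with all libraries was 0.690-fold to 1.89-fold in FPKM + 1, and at this low level it is wider for FPKM itself. The second copy, MINPP1 (ENSORLG00000020713, chromosome 19, 473643 to 475958, plus strand), had no read in any library. A count of 0 allows up to 3 reads, or 0.137 FPKM in mutant 1. The span lies within ENSORLG00000023284 on the opposite strand, which was read in every library.

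cdipt (ENSORLG00000000218, chromosome 8, 763916 to 765967, minus strand) encodes phosphatidylinositol synthase, which joins free inositol to a lipid and so consumes it. It stood at 23.5, 16.9 and 19.0 FPKM in the mutant libraries, against 21.2, 21.8 and 23.7 FPKM in the wild-type libraries. Mutant 2 and 3 lay below all wild-type libraries and mutant 1 within their range. The log2 difference of -0.17 (SE 0.15) was the most negative of the set and did not pass the threshold (95% interval 0.689-fold to 1.14-fold; adjusted p = 0.859, limma). Its span lies within that of a gene named HSPA2 on the opposite strand, which held 0.136 to 0.454 FPKM.

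miox (ENSORLG00000022873, chromosome 6, 19286438 to 19293785, minus strand) encodes inositol oxygenase, the enzyme that breaks inositol down and is best known from the kidney. Only 1, 11 and 4 reads fell on it in the mutant libraries and 10, 10 and 5 reads in the wild-type libraries. These are 0.0118 to 0.136 FPKM in the mutant and 0.0618 to 0.111 FPKM in wild type, below the minimum for the test. The groups overlapped, and at this depth no difference was detectable. Its whole span is shared with lmf2a on the opposite strand, at 1.14 to 1.77 FPKM, and without a stated strand setting the reads of both cannot be told apart.

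**Figure D3:**
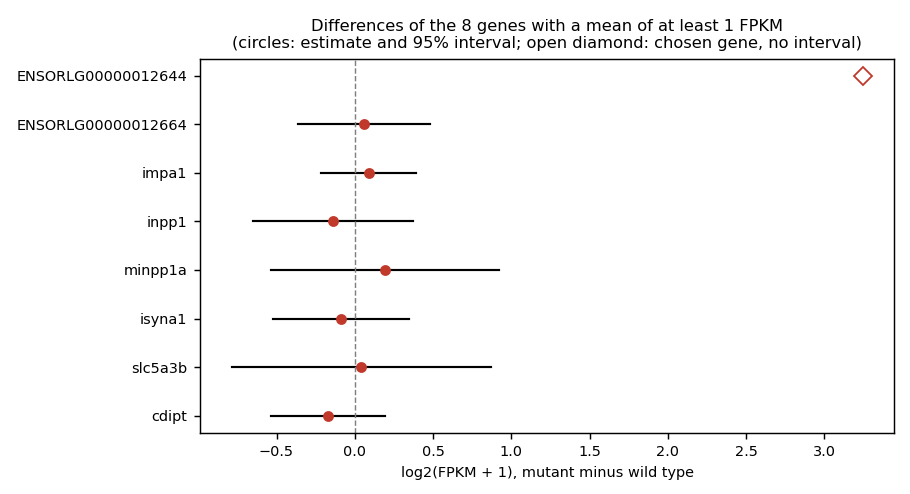
Difference in log2(FPKM + 1), nphp4 mutant minus wild type, of the 8 rows averaging 1 FPKM or more in the mutant or in wild type. Circles carry the 95% interval of limma and the open diamond marks the chosen gene, given without one or a test. The 7 circles lie between -0.17 and 0.19 with intervals that all span 0, and ENSORLG00000012644 lies at 3.25.

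In order of level, the mutant testis had impa1 (23.5 FPKM), ENSORLG00000012644 (20.1 FPKM), cdipt (19.8 FPKM), ENSORLG00000012664 (18.2 FPKM), slc5a3b (17.7 FPKM) and isyna1 (11.6 FPKM) at the top, each with a range that overlapped the next. A gap then separated minpp1a (3.30 FPKM) and inpp1 (2.31 FPKM), and miox and MINPP1 came last. In wild type the order was cdipt (22.3 FPKM), impa1 (22.0 FPKM), ENSORLG00000012664 (17.6 FPKM), slc5a3b (17.3 FPKM), isyna1 (12.3 FPKM), minpp1a (2.92 FPKM) and inpp1 (2.61 FPKM), followed by ENSORLG00000012644 (1.16 FPKM). There the ranges of cdipt and impa1 overlapped, as did those of ENSORLG00000012664 and slc5a3b, of slc5a3b and isyna1, and of minpp1a and inpp1. impa1 lay above ENSORLG00000012664, and isyna1 above minpp1a, with no overlap. ENSORLG00000012644 lay below inpp1 and above miox, also with no overlap. ENSORLG00000012644 was thus the second of the 10 rows in the mutant and the eighth in wild type.

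The genes around ENSORLG00000012644 on chromosome 20 were read to see whether they shared its difference. Of the 10 annotated genes on each side, 15 of 20 were tested. limma called 0 of these 15, where 0.0592% of all tested genes were called. 2 had an unadjusted p below 0.05 in limma, as did 7.13% of all tested genes. limma-voom called 0 of the 15, with 3 at an unadjusted p below 0.05. Over all genes limma-voom called 0, with 1050 at an unadjusted p below 0.05. With so few calls over all genes, a count of 0 among 15 cannot by itself show whether the neighbours share the difference. Of the 15 genes, 6 were higher and 9 lower in the mutant, with log2 differences from -1.39 to 0.38 and a median of -0.13. None of the 15 thus had a rise near the 3.25 of ENSORLG00000012644. The groups did not overlap in 4 of the 15, against 14.0% over all tested genes.

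On the side away from ENSORLG00000012664, the nearest gene was CDH7, a cadherin, 31151 bases away and below the minimum at 0.0277 to 0.239 FPKM in the mutant and 0.138 to 0.447 FPKM in wild type. Beyond ENSORLG00000012664 lie 3 matches to CD38, an enzyme that makes a calcium-releasing messenger from NAD. 1 of them, ENSORLG00000029660, named after its values were seen, was at 0.168, 1.09 and 0.939 FPKM in the mutant libraries, against 1.38, 3.52 and 6.87 FPKM in the wild-type libraries. Its log2 difference of -1.39 (SE 0.46) did not pass the threshold (adjusted p = 0.554, limma), and its highest value was in wild type 3. The other gene at an unadjusted p below 0.05 was lztfl1, a regulator of the BBSome in cilia. It was the furthest neighbour on the CDH7 side, 864341 bases away. Between gene midpoints, the neighbours reached 871 kb on that side and 138 kb on the other. The level of lztfl1 was 24.9 to 37.8 FPKM in the mutant and 36.3 to 52.8 FPKM in wild type (log2 difference -0.53, adjusted p = 0.678, limma).

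**Figure D4:**
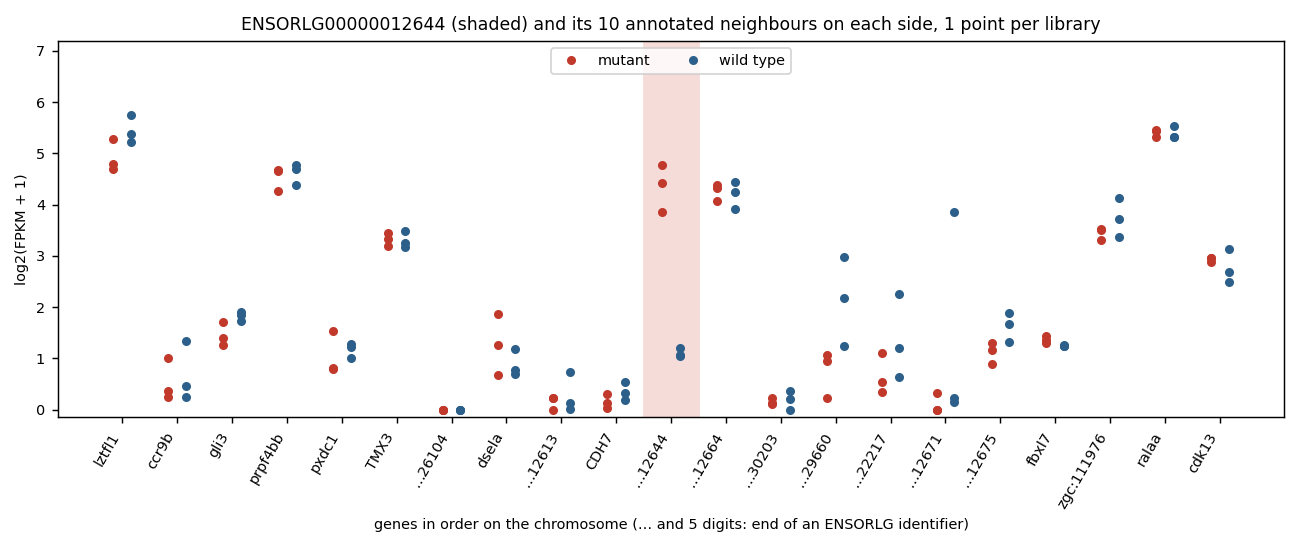
log2(FPKM + 1) of ENSORLG00000012644 (shaded) and the 10 annotated genes on each side of it in chromosome order, 1 point per library, with nphp4 mutant in red on the left and wild type in blue on the right of each gene. The shaded gene stands at 13.5 to 26.3 FPKM in the mutant and 1.06 to 1.32 FPKM in wild type before the log. limma called 0 of the 15 tested neighbours and 0.0592% of all tested genes.

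The wider pathway was read from 7 lists, which the members above left with 112 rows, 88 of them tested. limma called 0 of the 88, higher or lower, and 0 had an unadjusted p below 0.05. Of all tested genes, 0.0592% were called and 7.13% had an unadjusted p below 0.05. limma-voom called 0 of the 88, also with 0 at an unadjusted p below 0.05. Over all genes limma-voom called 0, with 1050 at an unadjusted p below 0.05. 36 of the 88 were higher and 52 lower in the mutant, with a median log2 difference of -0.02. The groups did not overlap in 5 of the 88, against 14.0% of all tested genes. These were nfat5a, inpp5jb and plcd4b, higher in the mutant, and inpp5e and xylb, lower in the mutant. The highest of the 6 values was in wild type 3 for 40.9% of the 88 and for 27.6% of all tested genes.

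Among the phosphatases that share the fold of inositol monophosphatase, 0 of 4 tested rows were higher and 4 were lower in the mutant, none past the threshold, with a median log2 difference of -0.27. bpnt1, which clears a byproduct of sulfation, was at 7.44 to 9.04 FPKM in the mutant and 7.92 to 8.65 FPKM in wild type. fbp1b, a copy of the gene of the gluconeogenic enzyme fructose bisphosphatase, had the largest difference of the 4 (log2 difference -1.13, adjusted p = 0.897, limma). Its level was 60.2 FPKM in wild type 3 and at most 4.87 FPKM in the other 5 libraries, and the part of the digestive tissue in it was not tested.

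The list of inositol and osmolyte carriers with their regulator also held matches to AKR1B1, an enzyme and not a carrier. It had 2 higher and 7 lower of 9 tested rows, with a median of -0.20 and none past the threshold. The 2 higher rows were nfat5a and nfat5b, and every tested AKR1B1 match was lower. The median was the value of 1 AKR1B1 match (ENSORLG00000029985). Of the 7 lower rows, all but slc2a13b had their highest value in wild type 3. slc2a13b, a proton-coupled inositol carrier in mammals, was at 6.53, 5.95 and 8.39 FPKM in the mutant libraries, against 7.57, 7.90 and 6.66 FPKM in the wild-type libraries (log2 difference -0.08, adjusted p = 0.926, limma). nfat5a, the factor that turns on osmolyte carriers under hypertonic conditions, was at 5.53, 5.74 and 6.57 FPKM in the mutant libraries, against 4.96, 5.12 and 3.40 FPKM in the wild-type libraries. Every mutant library was above every wild-type library, and over all tested genes the groups did not overlap in 14.0%. The nfat5a log2 difference of 0.35 (SE 0.18) did not pass the threshold (adjusted p = 0.772, limma). The other copy, nfat5b, was at 1.67, 1.00 and 1.19 FPKM in the mutant libraries, against 0.782, 1.23 and 0.967 FPKM in the wild-type libraries. Its groups overlapped (log2 difference 0.19, adjusted p = 0.882, limma). slc5a11, a further sodium/inositol carrier, stayed below the minimum, with its highest value of 1.95 FPKM in wild type 3.

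The kinases and hydrolases of inositol polyphosphates held 6 higher and 8 lower of 14 tested rows, with a median of -0.06 and none past the threshold. itpkb, which adds a phosphate to inositol trisphosphate, was at 4.68 to 8.51 FPKM in the mutant and 4.82 to 5.08 FPKM in wild type, and itpka, of the same function, at 9.90 to 15.5 FPKM in the mutant and 13.6 to 39.6 FPKM in wild type with its top value in wild type 3. The inositol 5- and 4-phosphatases held 6 higher and 8 lower of 14, with a median of -0.0048 and none past the threshold. inpp5e, a phosphatase of the ciliary membrane whose human gene is mutated in Joubert syndrome, was at 2.08 to 2.28 FPKM in the mutant and 2.32 to 2.82 FPKM in wild type (log2 difference -0.15, adjusted p = 0.873, limma). ocrl, the phosphatase of Lowe syndrome, was at 2.04 to 2.16 FPKM in the mutant and 1.94 to 2.79 FPKM in wild type.

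Phospholipase C genes and receptors of inositol trisphosphate held 11 higher and 11 lower of 22 tested rows, with a median of -0.0018 and none past the threshold. PLCZ1, the sperm phospholipase that starts calcium waves in the mammalian egg, was the most abundant of them, at 14.3, 18.3 and 33.2 FPKM in the mutant libraries against 22.4, 33.2 and 16.9 FPKM in the wild-type libraries (log2 difference -0.17, adjusted p = 0.932, limma). Phosphatidylinositol resynthesis and transfer held 10 higher and 8 lower of 18, with a median of 0.02 and none past the threshold. cds2, which makes the lipid partner of cdipt, was at 10.1 to 13.0 FPKM in the mutant and 9.32 to 13.1 FPKM in wild type. Inositol oxygenation and glucuronate use held 1 higher and 6 lower of 7, with a median of -0.15 and none past the threshold. sord, sorbitol dehydrogenase, was at 68.7 to 111 FPKM in the mutant and 84.6 to 120 FPKM in wild type, and akr1a1a held 15.4 FPKM in wild type 3 and at most 1.25 FPKM elsewhere. The genes named from these lists were picked after their values were seen.

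**Figure D5:**
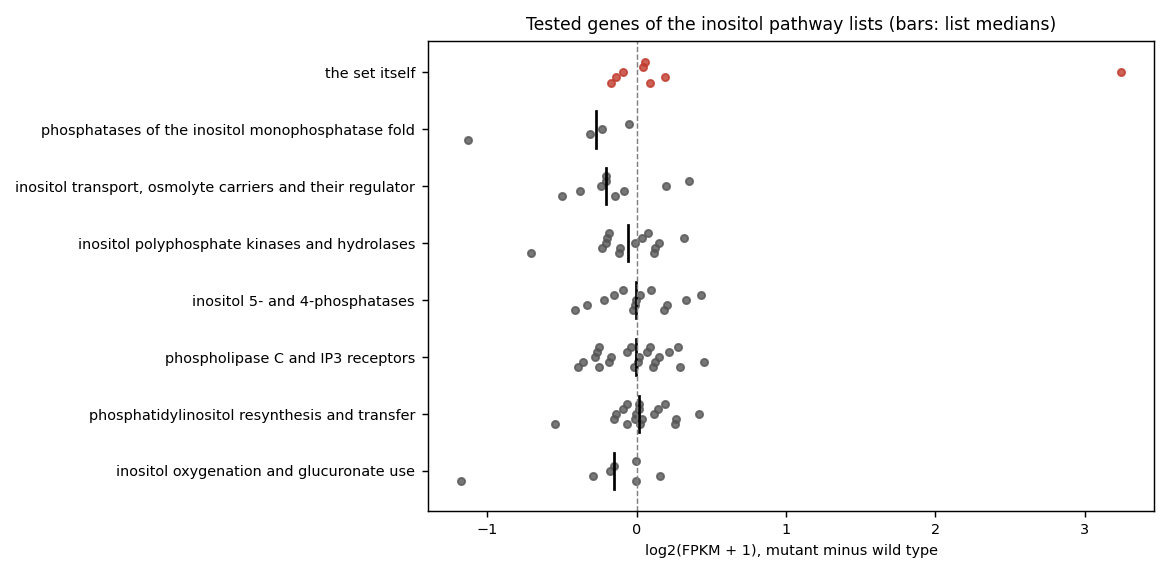
Difference in log2(FPKM + 1), nphp4 mutant minus wild type, of 8 members (red) and of the 88 tested genes of 7 pathway lists (grey). A bar marks the median of each list. The 8 members are the 7 tested ones and ENSORLG00000012644, which gets no test. The list medians lie between -0.27 and 0.02, and ENSORLG00000012644, at 3.25, is the single point above 0.45.

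The genes whose values over the 6 libraries were most like those of ENSORLG00000012644 came from other chromosomes. Likeness was the Pearson correlation of log2(FPKM + 1) with each of 15202 other tested genes. It is a description, since all points share the libraries and the groups. ENSORLG00000006805 on chromosome 5, a match to a regulatory subunit of protein phosphatase 4, had the highest value (r = 0.998). It stood at 4.59, 4.85 and 4.69 FPKM in the mutant libraries and at 3.67, 3.68 and 3.61 FPKM in the wild-type libraries, a far smaller difference. The match to VWA5A on chromosome 13 (ENSORLG00000029944, r = 0.995) stood at 4.83 to 6.26 FPKM in the mutant and 0.536 to 0.749 FPKM in wild type. masp2 on chromosome 7, a protease of the lectin pathway of complement (r = 0.989), stood at 3.25 to 4.84 FPKM in the mutant and 0.706 to 1.18 FPKM in wild type. The last 2 were ENSORLG00000028296 on chromosome 13 and ENSORLG00000029143 on chromosome 2 (r = 0.987 each), both without a protein match. None of the 5 belongs to the inositol lists.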

How the data were processed

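The values deposited by the authors are FPKM, 1 for each gene in each library, beside a gene length in bases, which is of another kind. Per the submitters' processing notes, the tools were DESeq2 1.20.0, featureCounts 1.5.0-p3, HISAT2 2.0.5, fastp and CASAVA 1.8, with no roles stated. Build, annotation release and strand setting are not given in the sources used here, so coordinates are those of the table. FPKM times length gave whole multiples of 1 read (within 0.01 read) for 100.0% of values above 0, and these reads were used in limma-voom.

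log2(FPKM + 1) was modelled with limma (version 3.58.1, R 4.3.3) without covariates, using trended and robust variance moderation, over the 15203 genes averaging 1 FPKM or more in the mutant or in wild type. Calls needed a Benjamini-Hochberg adjusted p below 0.05 over all tested genes. Differences on this scale understate the change of genes with low values. Intervals given as folds are folds of FPKM + 1 and are too narrow for the FPKM of such genes. Members were matched by symbol (case ignored, final a or b allowed) or, for rows with an identifier only, by the symbol of the protein match with punctuation ignored, which gave isyna1. That gene has the same symbol in RefSeq (ASM223467v1).

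The members, the 7 lists and the cell markers were chosen with earlier results of these data known. The rule for named genes took all members, list genes at an unadjusted p below 0.05 (of which there were 0), the nearest neighbours and the 5 most alike genes. The list genes and further neighbours named with values fall outside this rule and were picked after their values were seen. Counting limits of 3 reads cover counting error only. Alternatives were a pseudocount of 0.1, a minimum of 0.3 FPKM or none, library totals, limma-voom, a replicate block, an adjusted p below 0.01 and leaving out each library. Library totals means FPKM rescaled to the reads on genes.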

Additional observations from a re-analysis of the deposited data

How the results depend on the processing

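The level of ENSORLG00000012644 was higher in the mutant under all 12 alternatives to its log2 difference of 3.25. This difference became 3.96 with a pseudocount of 0.1 and 4.06 in limma-voom, both of which compress low values less. The gene was chosen for this difference and its groups lie far apart, so the shared direction describes it and is no support. The count of 9 called genes became 14 with library totals, 0 in limma-voom, 5 at an adjusted p below 0.01 and 2 to 18 when 1 library was left out; the cause was not tested, except that a stricter threshold keeps fewer genes. None of the 7 tested members, 88 pathway genes and 15 neighbours was called under any of these alternatives. The smallest adjusted p of a tested member was 0.604 (limma, without wild type 3). In the main fit only 0.0592% of all tested genes were called, so these counts of 0 are near the background and show no lack of difference. Leaving out 1 library turned the sign of 5 members, none of them called: the log2 differences ranged from -0.086 to 0.175 for ENSORLG00000012664, -0.189 to 0.338 for slc5a3b, -0.191 to 0.067 for isyna1, -0.014 to 0.513 for minpp1a and -0.278 to 0.034 for inpp1. With the replicate number as a block, 6 genes were called. Deviations of same-numbered libraries from their group means correlated at 0.310, -0.562 and -0.419. Among the 3 libraries of the other group, 2 of 6 libraries correlated best with their own number, so no pairing by number was seen. In this comparison across groups, mutant 2 and wild type 3, both with high sums of intestinal markers, correlated best with each other. With 3 libraries per group, this check cannot decide whether the numbers pair the libraries. Recovered reads scaled to the reads on genes of each library gave p = 0.5 in the exact permutation test of the 2 other inositol monophosphatase genes, against p = 0.4 on FPKM. Genes with few reads, such as miox, are limited by depth.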
